A study of Mus musculus with 3 samples.

Results

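The 10 knock cells of the CBTi-seq experiment were ranked by how much Rrm2 RNA each still held, and the 5 with most were set against the 5 with least, so the sides were chosen by the measured Rrm2 level. They make up 10 of the 20 columns of 1 CBTi-seq sample, the other 10 being control cells. The cells are L929, an established mouse fibroblast line, and the study set Rrm2-knockdown cells beside control cells. The series title calls the cells gene-edited. How the knockdown was made, whether the knock cells are 1 clone, and what the control cells received is information not given in the sources used here. Cells were picked singly with a capillary, their RNA was primed at the poly(A) tail, extended by template switching and put through 20 PCR cycles, and the table holds molecule counts (UMIs) per gene. The columns are called cells after that protocol, and their own names say only control or knock and a number.

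Rrm2 is a small subunit of ribonucleotide reductase, the enzyme that makes the deoxynucleotides used in DNA synthesis. Its RNA and protein are known to accumulate in S phase, and the protein is removed later in the cycle and in G1. The large subunit Rrm1 is present through the cycle, and Rrm2b is a small subunit induced by p53. A shortage of deoxynucleotides is known to slow replication forks and to activate the replication checkpoint and p53, whose targets include the cell cycle inhibitor Cdkn1a. The amount of Rrm2 RNA in a single cell can therefore reflect its cycle position as well as a knockdown, and the comparison asks whether p53, stress and cycle RNA goes with Rrm2 or with cycle phase.

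The ranking rests on narrow differences. Rrm2 (ENSMUSG00000020649) occupies bases 24708241 to 24714146 of chromosome 12 (GRCm38, plus strand) and overlaps no other annotated gene. Among the 5 cells with most Rrm2 its level, as counts scaled to the cell's total (CPM), was 489.4 in cell 1, 408.4 in cell 5, 398.6 in cell 9, 384.7 in cell 6 and 370.1 in cell 3. Among the 5 with least it was 354.1 in cell 2, 330.8 in cell 8, 324.8 in cell 4, 316.0 in cell 7 and 282.7 in cell 10. Values by cell are given in this order throughout.

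These values chose the cells, so the 2 sides cannot overlap in Rrm2 and its difference is no result. Cell 3, just inside the upper side, had a 95% Poisson interval of 311.1 to 437.0 CPM from 139 counts, and cell 2, just outside it, had 280.8 to 440.7 CPM from 80 counts. The order of cells near the boundary is thus not fixed by the counts. Summed over cells, Rrm2 stood at 404.7 CPM (372.3 to 439.1) on the upper side and 312.8 CPM (289.2 to 337.8) on the lower side. The control cells ranged from 356.1 to 652.2 CPM. The lowest control cell (95% interval 306.1 to 411.9 CPM) fell between cells 3 and 2, within the intervals of both. The sides are therefore not marked off by it as knockdown and control-like cells. All intervals here cover counting error only, since PCR and picking add variation that they leave out.

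**Figure D1:**
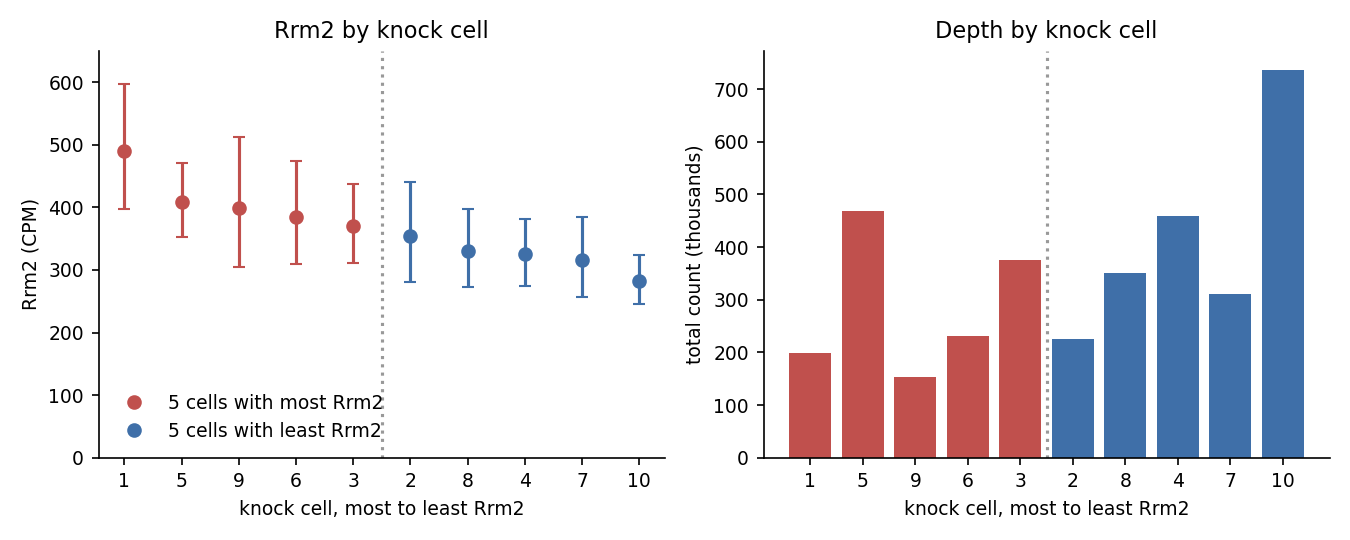
Rrm2 level in CPM with its 95% Poisson interval (left) and total count (right) for each of the 10 knock cells, ordered from most to least Rrm2, with a dotted line between the 2 sides. The intervals of neighbouring cells overlap across the line, and cell 10 has both the lowest Rrm2 level and the highest total.

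Depth differed between the sides. The cells with most Rrm2 held 153051 to 467629 counts (median 231373) and those with least 225913 to 735871 (median 350687). Cell 10, with least Rrm2, was the deepest, and cells 9 and 1 on the other side were the shallowest. A median of 11811 genes per cell was detected with most Rrm2 and 13079 with least. Over the summed cells, 3 counts equal 2.10 and 1.44 CPM. Of 11 fibroblast markers 8 have a row in the table, led by Vim at 1204 CPM with most Rrm2 and 980.2 CPM with least and S100a4 at 616.5 and 521.3 CPM, while Thy1, Lum and Dcn have none. Summed fibroblast markers came to 1764 to 2555 CPM with most Rrm2 and 1438 to 2039 CPM with least. All 4 erythroid markers with a row were at 0, epithelial markers summed to at most 5.05 CPM in any knock cell, and macrophage and leukocyte markers summed to 10.6 to 51.9 CPM and 17.7 to 52.3 CPM. Muscle markers summed to 6.53 to 85.2 CPM and 8.55 to 89.4 CPM, mostly from Des, with Ckm at 0. Of the 86 genes picked by the naming rule, 22 overlap another annotated gene on the same strand and 36 on the opposite strand, and since the counting's use of strand is unknown their counts are uncertain. There is 1 sample, and its cells are not replicates, so no test was made and no difference below has a replicate check.

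The promoters below are shown because Rrm2 and the G2 and M phase genes, which all belong to the cycle, were on opposite sides in the comparison that follows. Each is the 250 bases before the gene's start, from RefSeq (GRCm38.p6), and capitals mark the CCAAT box on either strand, a short element common in promoters of mitotic genes. The Rrm2 promoter is chr12:24708004-24708253 on the plus strand, with 1 box. The promoter of Ccnb1, the cyclin that drives entry into mitosis, is chr13:100786487-100786736 on the minus strand, with 2. That of Hmmr, a spindle protein gene, is chr11:40733438-40733687 on the minus strand, with 5.
Rrm2: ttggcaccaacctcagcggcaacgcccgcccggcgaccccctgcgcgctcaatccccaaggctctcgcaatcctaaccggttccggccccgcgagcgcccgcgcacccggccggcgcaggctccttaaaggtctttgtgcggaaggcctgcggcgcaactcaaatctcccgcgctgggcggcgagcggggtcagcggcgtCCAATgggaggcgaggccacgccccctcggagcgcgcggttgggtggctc
Ccnb1: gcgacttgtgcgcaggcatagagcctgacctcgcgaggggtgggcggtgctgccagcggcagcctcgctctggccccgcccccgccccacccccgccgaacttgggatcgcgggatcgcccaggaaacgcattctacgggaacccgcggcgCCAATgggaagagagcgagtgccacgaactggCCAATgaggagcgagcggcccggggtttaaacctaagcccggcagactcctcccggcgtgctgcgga
Hmmr: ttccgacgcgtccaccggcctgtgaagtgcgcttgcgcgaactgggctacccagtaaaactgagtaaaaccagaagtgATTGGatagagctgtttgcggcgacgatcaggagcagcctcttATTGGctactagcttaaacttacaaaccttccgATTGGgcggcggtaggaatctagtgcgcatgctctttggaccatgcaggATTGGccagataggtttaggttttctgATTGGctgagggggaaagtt
Of 54 G2 and M phase genes found in the promoter table, 75.9% held CCAAT on either strand, against 37.5% of all 27025 genes there, 63.9% of 36 S phase genes, 51.6% of 31 p53 target genes and 55.9% of 34 integrated stress response genes. The cell cycle homology region core (TTTGAA, both strands) was in 38.9% of the G2 and M phase promoters, 16.7% of the S phase promoters and 18.3% of all. An E2F site (TTTGGCGC or TTTCCCGC, both strands) was in 3.70% of the G2 and M phase promoters, 25% of the S phase promoters and 1.51% of all. None of these motifs contains another. None of the 3 printed promoters holds the last 2 motifs, which says only that these letters are not in these windows.

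Genes of G2 and mitosis had less RNA in the knock cells with most Rrm2. Of 63 such genes, all measured at 20 CPM or more, 57 had a log2 ratio (most over least Rrm2) below 0, with a median of -0.47. Over all 8097 genes at that level 63.1% were below 0, with a median of -0.12. The 95% counting interval of the ratio lay wholly below 0 for 46 of the 63 and wholly above 0 for 0. Of the 60 members at a mean of 50 CPM or more, Dlgap5 and Cenpe were called at least 2-fold lower and none higher, where 0.700% of all genes at that level were called lower and 1.18% higher. With TMM and median-of-ratios factors Dlgap5 kept its call, at -1.10 and -1.07, and Cenpe, at -0.91 and -0.88, did not.

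Cyclin B1 shows the pattern by cell. Ccnb1 stood at 181.6, 166.8, 241.7, 211.8 and 194.4 CPM in the cells with most Rrm2 and at 478.1, 404.9, 399.0, 325.7 and 165.8 CPM in those with least. Cells 2, 8, 4 and 7 lay above every cell of the other side, while cell 10 lay below them all. The summed levels were 191.5 and 315.2 CPM, a log2 ratio of -0.72 (95% interval -0.93 to -0.51), and -1.05 without cell 10. Hmmr had 100.9, 96.2, 78.4, 155.6 and 69.2 CPM against 318.7, 182.5, 248.5, 267.7 and 81.5 CPM, a log2 ratio of -0.95 (-1.24 to -0.67), and again only cell 10 of its side overlapped the other. Cenpe, a kinetochore motor, had 136.2, 74.8, 104.5, 95.1 and 90.5 CPM against 278.9, 196.8, 226.7, 193.5 and 133.2 CPM, a log2 ratio of -1.01 (-1.30 to -0.72). Here cell 10 lay within the range of the upper side, just below cell 1.

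Other mitotic genes differed by less or rested on fewer counts. Cdk1, the kinase that cyclin B1 activates, had 237.1, 224.5, 294.0, 298.2 and 218.3 CPM against 349.7, 350.7, 355.3, 341.8 and 218.8 CPM, and a log2 ratio of -0.32 (-0.51 to -0.12). Ect2, which triggers cytokinesis, had -0.94 (-1.30 to -0.60). The proliferation marker Mki67 had -0.37 (-0.57 to -0.16), and -0.14 without cell 5. Topoisomerase Top2a, needed to separate chromosomes, had -0.04 with an interval across 0 (-0.19 to 0.10). The spindle gene Dlgap5, at 35.8 and 82.2 CPM, had -1.20 (-1.68 to -0.74). Top2a and Ect2 are among the genes that overlap another.

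Cell 10 set how many G2 and M phase genes separated the sides. With all 10 cells, 1 of the 63 genes had every cell of the upper side below every cell of the lower side, namely Tmpo, a nuclear lamina protein gene picked here after its values were seen, with a log2 ratio of -0.33 (-0.54 to -0.12). Over all 8097 genes, 118 (1.46%) were separated that way and 40 (0.494%) the other way. Without cell 10 the count became 20 of 63, against 183 (2.29%) of 7999 genes, with 0 of 63 and 69 (0.863%) of all genes separated the other way. The 20 include Ccnb1, Cdk1, Hmmr, Cenpe, Ect2 and, chosen after their values were seen, the mitotic kinases Plk1 (-0.76 with all cells) and Aurka (-0.41), cyclin A2 (Ccna2, -0.51) and the anaphase activator Cdc20 (-0.68). The median of the list was then -0.63, with 61 of 63 below 0. In terms of a list level, the mean log2 level of its genes in a cell relative to the mean of the 10 cells, cells 2, 8, 4 and 7 stood at 0.58, 0.32, 0.33 and 0.31. The other 6 cells lay between -0.44 (cell 5) and 0.01 (cell 9), with cell 10 at -0.36.

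**Figure D2:**
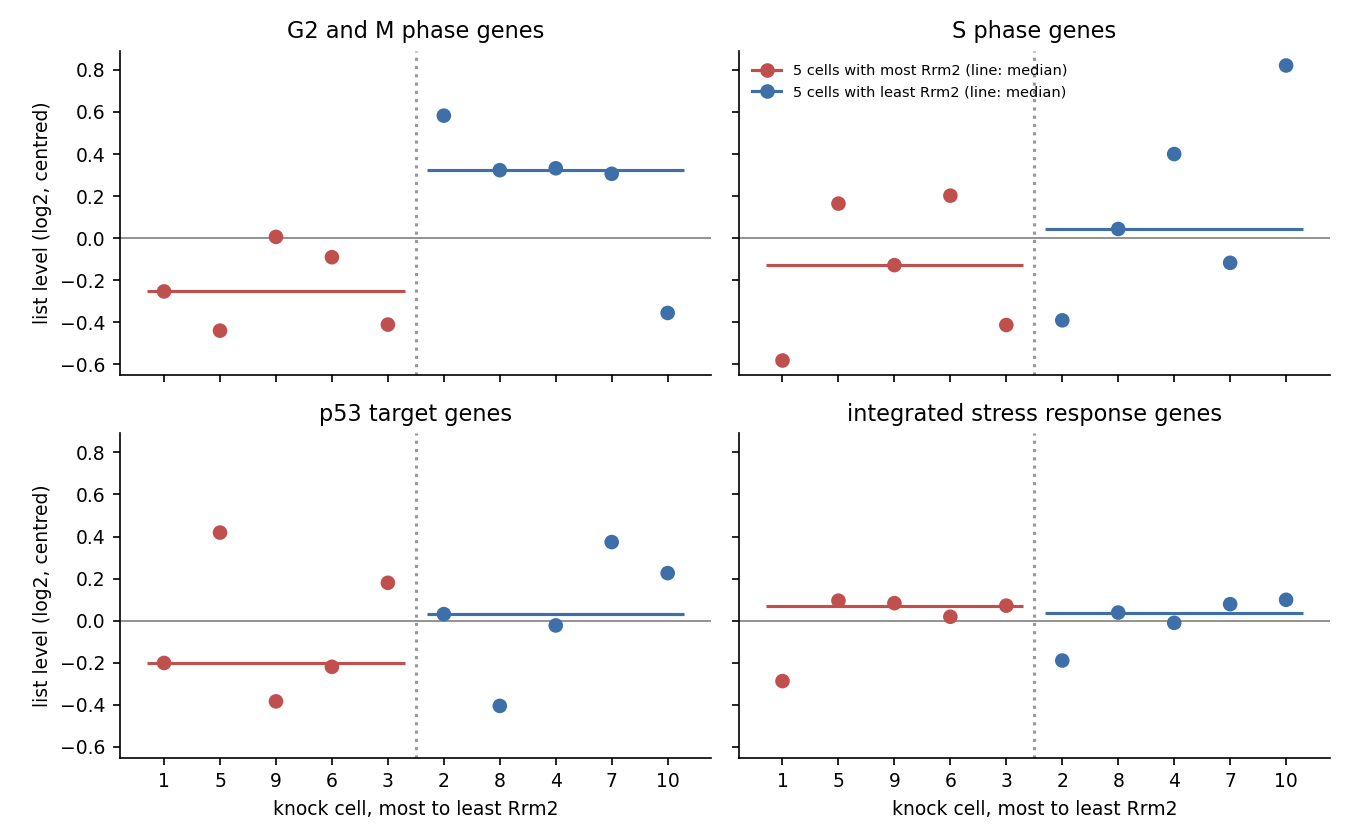
Level of 4 gene lists in each knock cell (mean log2 level of the list's genes, centred on the 10 cells), ordered from most to least Rrm2, with horizontal lines at the median of each side. For G2 and M phase genes 4 of the 5 cells with least Rrm2 lie between 0.31 and 0.58 and cell 10 at -0.36, whereas the sides overlap broadly for the other 3 lists.

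S phase genes were also lower with most Rrm2, but most of that difference went with cell 10. Of 48 genes 46 were measured, 42 of them had a log2 ratio below 0, and the median was -0.48. The counting interval lay below 0 for 27 and above 0 for 1, Wdr76, at 0.80 (chosen after its value was seen). Without cell 10 the median was -0.14, with 34 of 45 genes below 0, while all genes had a median of -0.06. Leaving out cell 5 moved it to -0.63. The list level of cell 10 was 0.82, the highest, and those of cells 2, 8, 4 and 7 were -0.39, 0.04, 0.40 and -0.12. Cells 1, 5, 9, 6 and 3 stood at -0.58, 0.16, -0.13, 0.20 and -0.41, so the sides overlapped. No S phase gene separated the sides, with or without cell 10.

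Mcm5, a subunit of the replicative helicase, stood at 50.5, 109.1, 71.9, 77.8 and 63.9 CPM against 48.7, 122.6, 141.7, 51.6 and 251.4 CPM. Its log2 ratio was -0.94 (-1.26 to -0.63), and -0.33 without cell 10, whose level was by far the highest. The helicase subunit Mcm3 had -0.87, and -0.45 without that cell. Cdt1, which loads the helicase, and Rpa2, which coats single-stranded DNA, were the 2 of 33 members at 50 CPM or more called at least 2-fold lower, at -1.10 (-1.59 to -0.62) and -1.06 (-1.40 to -0.73), against 0.700% of all genes. They stood at -0.66 and -0.78 without cell 10, at -0.99 and -0.96 with TMM factors, at -0.96 and -0.92 with median-of-ratios factors and at -0.90 and -0.67 after thinning, so neither call held under these settings. The sliding clamp Pcna had -0.16 with an interval across 0 (-0.46 to 0.13). Cyclin E1, which drives S phase entry, had 35.3, 141.1, 13.1, 103.7 and 21.3 CPM against 48.7, 57.0, 32.7, 25.8 and 168.5 CPM. The log2 ratio of Ccne1 was -0.19 (-0.55 to 0.17), and 0.90 without cell 10. That of Ccne2 was -0.57 (-1.07 to -0.09), and 0.36 without cell 10. Cells 5, 6 and 10 were thus the cells with most cyclin E1, and they lay on both sides of the ranking.

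Rrm1 did not follow Rrm2, and Rrm2b had too few counts to tell. Rrm1 stood at 75.7, 160.4, 98.0, 159.9 and 175.7 CPM against 79.7, 128.3, 172.2, 232.2 and 218.8 CPM, a log2 ratio of -0.30 (-0.56 to -0.06). Cells 1, 9 and 2 were its lowest, and the sides overlapped. Rrm2b stood at 18.9 and 17.8 CPM, a log2 ratio of 0.09 with an interval of -0.68 to 0.85 from 27 and 37 counts, so a difference of up to 0.68 downward or 0.85 upward was not detectable at this depth. Of 37 measured genes of dNTP and nucleotide synthesis, 24 were below 0 (median -0.23), a share near the 63.1% of all genes (median -0.12). Of the 30 members at 50 CPM or more, Pfas, of purine synthesis, was the 1 called higher, at 1.27, where 1.18% of all genes were. It had 211.9, 275.9, 91.5, 64.8 and 255.6 CPM against 66.4, 88.4, 54.5, 77.4 and 114.2 CPM. Cells 9 and 6 thus lay within the range of the other side. The summed levels were 207.6 and 86.0 CPM. Ppat, the first step of the same route, had -0.71 (-1.16 to -0.28), and Prps1, which makes its starting substrate, -0.61 (-0.88 to -0.34). Of 28 replication checkpoint and repair genes 23 were below 0 (median -0.36), and 25 of 31 without cell 10 (median -0.29). Only 14 of the 28 reached 50 CPM. Ratios ran lower at low levels, the median of all genes being -0.12 at 20 CPM or more and -0.01 at 100 CPM or more. Members below 0 included Rad50 at -0.91 (-1.34 to -0.50), and Rbbp8 at -0.93 (-1.41 to -0.46), which was -0.36 without cell 10. Chek2, a checkpoint kinase chosen after its values were seen, was the 1 member that separated the sides, at -1.40 (-2.15 to -0.71). Over all genes, 1.46% separated them downward.

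Some G1 regulators were higher with most Rrm2. Cyclin D1, which drives passage through G1, stood at 792.1, 585.9, 463.9, 458.1 and 750.8 CPM against 398.4, 416.3, 357.5, 432.1 and 360.1 CPM. Every cell on the upper side had more Ccnd1 than every cell on the lower side, with a log2 ratio of 0.70 (0.56 to 0.84). Ccnd1 was the 1 member of its list that separated the sides, where 0.494% of all genes did so upward. Its partner kinase Cdk6 had 605.4, 346.4, 202.5, 363.0 and 436.6 CPM against 177.1, 185.4, 194.0, 135.4 and 273.1 CPM, a log2 ratio of 0.91 (0.72 to 1.09), with only cell 10 overlapping the other side and 1.17 without that cell. Over all 17 measured G1 cyclin, kinase and RB family genes there was no common direction, with 9 above 0, 8 below and a median of 0.04. Ccnd1 and Cdk6 overlap genes on the opposite strand. For Ccnd1 that gene is LTO1, itself among the highest ratios below.

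**Figure D3:**
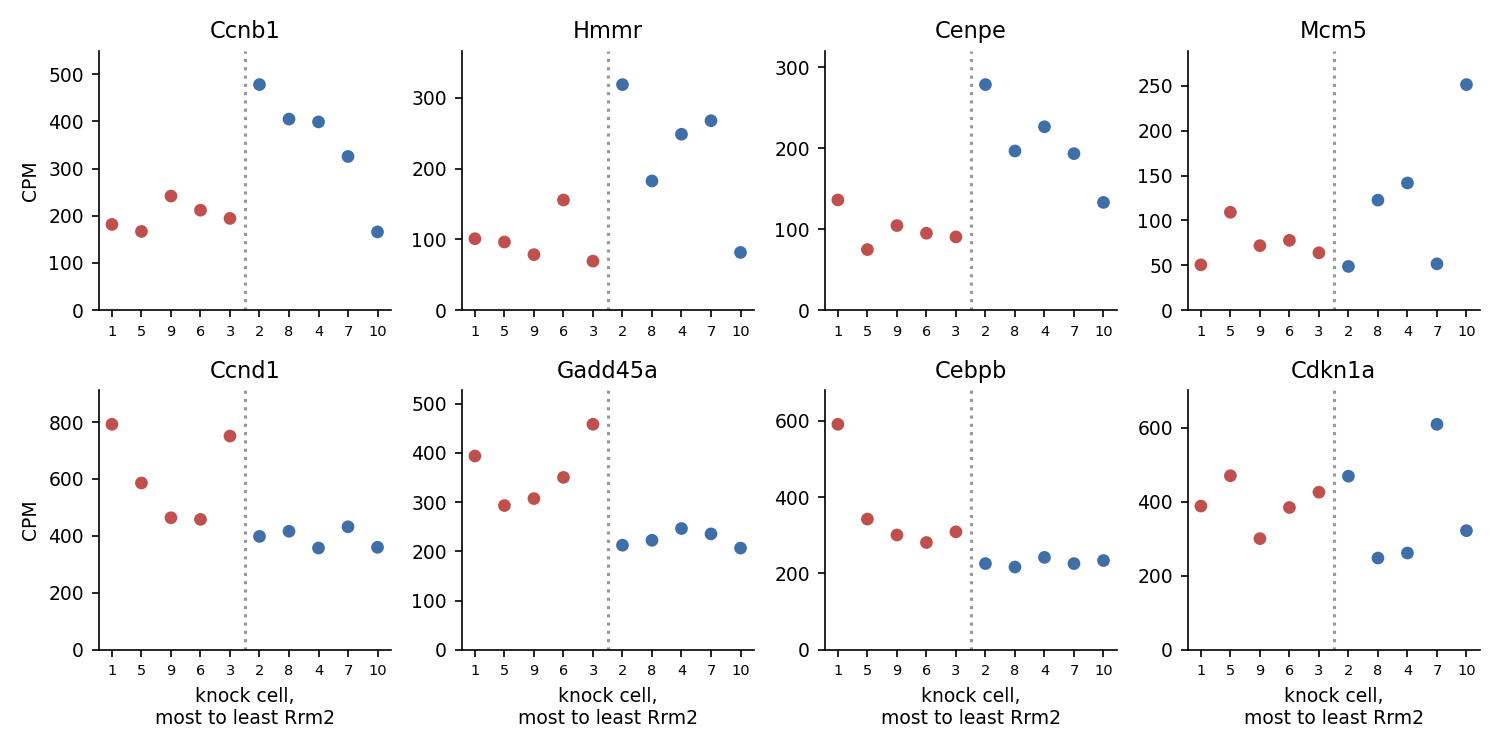
CPM of 8 genes in each knock cell, ordered from most (red) to least (blue) Rrm2, each axis starting at 0. Ccnd1, Gadd45a and Cebpb are higher in every cell on the upper side, Ccnb1 is highest in cells 2, 8, 4 and 7, Mcm5 in cell 10, and Cdkn1a overlaps between the sides.

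p53 target genes lay on both sides of 0. Of 39 target genes, 23 were measured, 12 were above 0 and 11 below, and the median was 0.03. Counting intervals lay wholly above 0 for 6 and wholly below for 6. With TMM or median-of-ratios factors 9 of 23 were below 0, and after thinning 13 were. Cdkn1a had 388.5, 470.5, 300.6, 384.7 and 426.0 CPM against 469.2, 248.1, 261.6, 609.5 and 322.1 CPM, a log2 ratio of 0.23 (0.07 to 0.38). Its highest cell, 7, and its lowest, 8, were both among those with least Rrm2. Mdm2, which marks p53 for degradation, had -0.18 (-0.47 to 0.10), and -0.55 without cell 5, and Ccng1 had -0.26 (-0.50 to -0.02). The list median was -0.23 without cell 5 and 0.12 without cell 6, so its sign rested on single cells.

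Of the 23 measured p53 targets, 1 separated the sides upward and 1 downward, both stress-induced. Over all 8097 genes, 0.494% did so upward and 1.46% downward. Gadd45a, a growth arrest protein gene, stood at 393.5, 293.0, 307.1, 350.1 and 457.9 CPM against 212.5, 222.4, 246.3, 235.4 and 206.6 CPM, a log2 ratio of 0.70 (0.51 to 0.88). Sesn2, which restrains mTORC1, stood at 35.3, 72.7, 111.1, 82.1 and 79.9 CPM against 150.5, 139.7, 113.4, 174.1 and 149.5 CPM, a log2 ratio of -0.94 (-1.27 to -0.61). The nearest cells of Sesn2, 9 and 4, were almost level. The adenylate kinase Ak1 had 0.75 (0.54 to 0.95) and the death receptor Tnfrsf10b 0.84 (0.44 to 1.24), with overlapping cells, and Tnfrsf10b had 1.26 without cell 10. Gadd45a and Sesn2 overlap other annotated genes.

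Integrated stress response genes also lay on both sides of 0. This pathway raises translation of Atf4 under amino acid, ER or other stress. Of 41 measured genes 19 were above 0 and 22 below, with a median of -0.01, and 8 intervals lay wholly on each side of 0. The split moved with the scaling, to 14 of 41 below 0 with TMM and 13 with median-of-ratios factors, and to 24 after thinning, beside 63.1% below 0 over all genes in the main scaling. Atf4 had a log2 ratio of 0.16 (0.04 to 0.29), and 0.02 without cell 10. The death-linked factor Ddit3 had 0.19 (-0.00 to 0.37), Chac1, which degrades glutathione, 0.14 (-0.10 to 0.37), and Trib3 -0.07 (-0.25 to 0.11). The tRNA synthetase genes on the list ranged from -0.45 (Mars), -0.41 (Aars) and -0.39 (Lars) to 0.03 for Gars and Sars, the last 2 chosen after their values were seen. Cebpb, a transcription factor, had 590.3, 342.2, 300.6, 280.9 and 308.8 CPM against 225.8, 216.7, 242.0, 225.7 and 233.7 CPM, a log2 ratio of 0.62 (0.43 to 0.80), and separated the sides upward. Wars, another synthetase gene chosen after its values were seen, separated them downward at -0.31 (-0.53 to -0.10). Over all genes, 0.494% separated the sides upward and 1.46% downward.

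**Figure D4:**
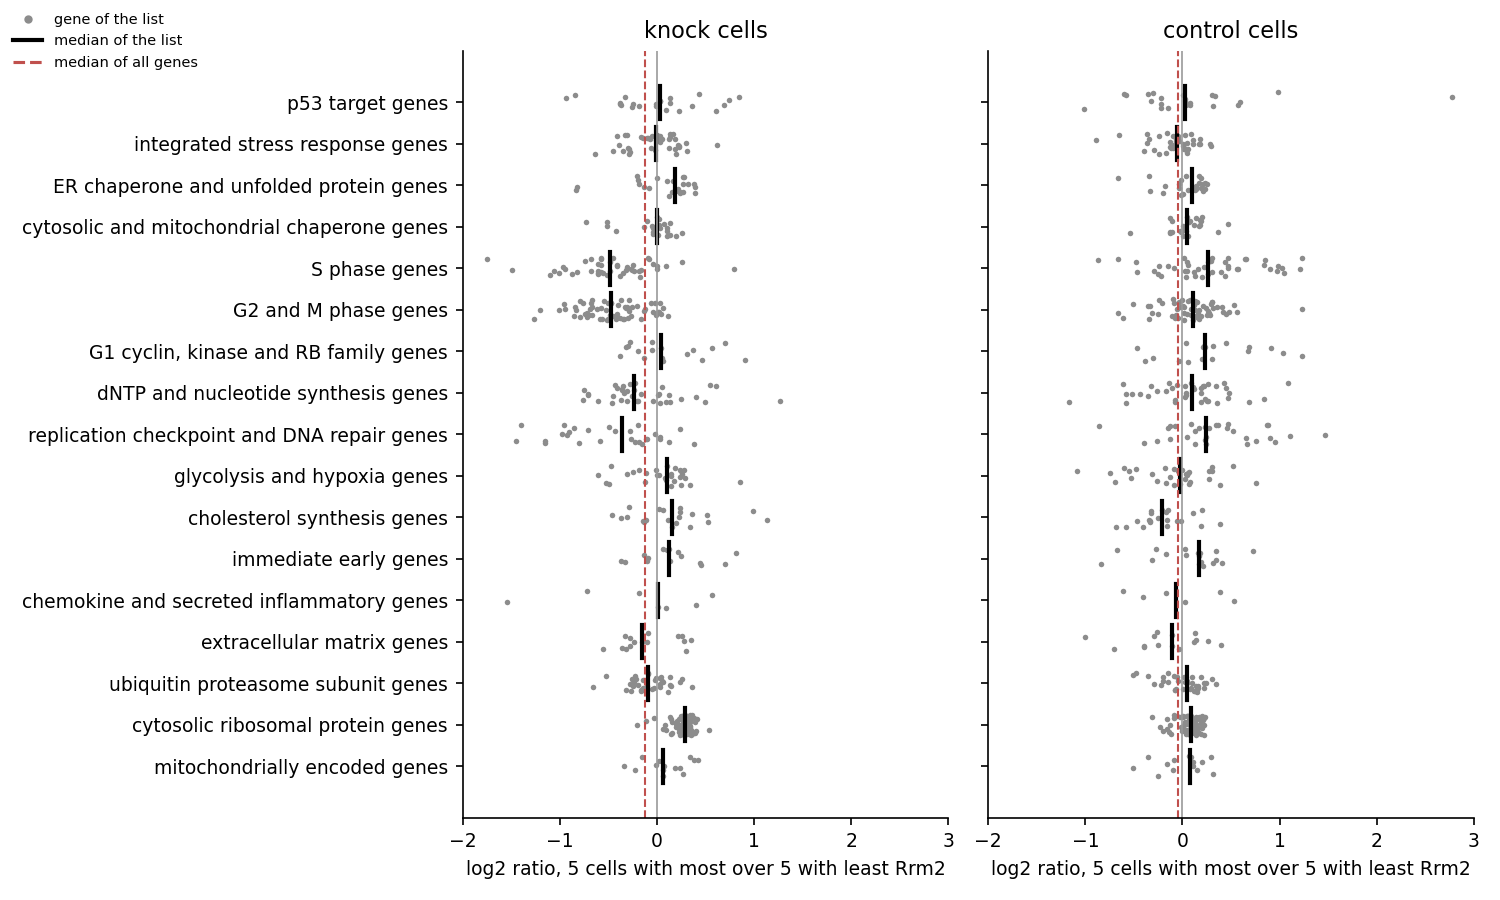
Log2 ratio of the 5 cells with most Rrm2 over the 5 with least for each measured gene (dots) of 17 lists, with the list's median (bar) and the median of all genes (dashed), in knock cells (left) and in control cells ranked the same way (right). G2 and M and S phase genes have medians of -0.47 and -0.48 in knock cells and of 0.11 and 0.26 in control cells.

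Set against the 10 control cells, both sides had more p53 target and stress RNA. In summed counts, G2 and M phase genes lay above control with least Rrm2 and below it with most, though single control cells varied widely. The comparisons share their control cells, so their values are given side by side. The p53 target genes had a median log2 ratio over control of 0.41 with most Rrm2 (17 of 23 above 0) and 0.45 with least (17 of 24). Integrated stress response genes had 0.15 (27 of 40) and 0.13 (31 of 41). Cdkn1a had 1.11 (0.95 to 1.26) and 0.88 (0.73 to 1.03), and Chac1 had 1.04 (0.81 to 1.28) and 0.91 (0.69 to 1.13). G2 and M phase genes had -0.32 (11 of 63 above 0) and 0.14 (45 of 63), and S phase genes -0.18 (15 of 45) and 0.38 (36 of 45). All genes had -0.12 (39.3% above 0) and 0.00 (50.5%), so S phase genes with most Rrm2 stood near all genes. Ccnb1 had -0.32 (-0.52 to -0.12) and 0.40 (0.26 to 0.55), and Gadd45a had 0.57 (0.41 to 0.72) and -0.13 (-0.29 to 0.03). Single control cells ranged from 33.4 to 388.5 CPM in Ccnb1, a range that held every cell with most Rrm2 (166.8 to 241.7 CPM). The cells with least had 165.8 to 478.1 CPM. In Cdkn1a control cells ranged from 105.2 to 360.8 CPM, against 300.6 to 470.5 and 248.1 to 609.5 CPM. The counting intervals leave this spread out.

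Metabolic lists differed less between the sides than either did from the control cells. Glycolysis and hypoxia genes were at -0.73 and -0.49 relative to control, and cholesterol synthesis genes at -0.62 and -0.65. Between the sides their medians were 0.10 (19 of 29 above 0) and 0.16 (14 of 21). Insig1, a feedback sensor of cholesterol synthesis, had 504.5, 329.3, 222.1, 229.1 and 300.9 CPM against 177.1, 176.8, 196.2, 196.7 and 110.1 CPM. Its log2 ratio was 0.99 (0.78 to 1.20). It was the 1 of the 21 members that separated the sides, where 0.494% of all genes did so upward. Of the other lists, ER chaperone and unfolded protein genes had a median of 0.19 (17 of 24 above 0), cytosolic and mitochondrial chaperones 0.00 (13 of 26), immediate early genes 0.13 (10 of 15), chemokine and secreted inflammatory genes 0.02 (4 of 7), extracellular matrix genes -0.15 (5 of 15), proteasome subunits -0.09 (13 of 36) and mitochondrially encoded genes 0.07 (10 of 14). Of the 9 replication-dependent histone genes in the table none reached 20 CPM, and their RNA mostly lacks the poly(A) tail that the primer needs.

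Ribosomal protein genes were higher with most Rrm2, and they followed depth. Of 85 genes 82 were above 0, with a median of 0.29, and 0.11 without cell 10. They held a median of 8.09% of counts with most Rrm2 (5.92% to 9.28%) and 6.14% with least (4.37% to 7.79%). Over the 10 knock cells their list level had a Pearson correlation of -0.96 with depth and of 0.72 with Rrm2, and Rrm2 itself had -0.66 with depth. The part of depth in the ribosomal and Rrm2 values was not tested.

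Correlations over the 10 knock cells, which share 1 library and differ in depth, are descriptions without a test. The p53 list level had a Pearson correlation (r) of -0.31 with Rrm2, 0.19 with the S phase level, -0.28 with the G2 and M phase level and 0.60 with depth. The integrated stress level had -0.53 with Rrm2, 0.58 with S phase, -0.26 with G2 and M phase and 0.47 with depth. Without cells 1 and 10, the 2 farthest from the median Rrm2, the value with Rrm2 was -0.06 for p53 and 0.22 for integrated stress. Rrm2 had -0.67 with the S phase level, which became -0.08 without those 2 cells, and -0.33 with the G2 and M phase level, which became -0.70. Cdkn1a had 0.17 with Rrm2. Spearman's rho of Rrm2 was -0.53 with S phase, -0.39 with G2 and M phase, -0.22 with p53 and -0.25 with integrated stress. With every cell thinned to 150000 counts, r of Rrm2 was -0.76 with S phase, -0.42 with G2 and M phase, -0.34 with p53 and -0.66 with integrated stress, and p53 had 0.78 with depth. Without the 2 cells then farthest from the median Rrm2, 1 and 4, these became -0.63, -0.18, -0.32 and -0.41. Which list lost its relation to Rrm2 with 2 cells left out thus differed between the settings. These left out different cells, so the part of thinning itself was not tested.

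**Figure D5:**
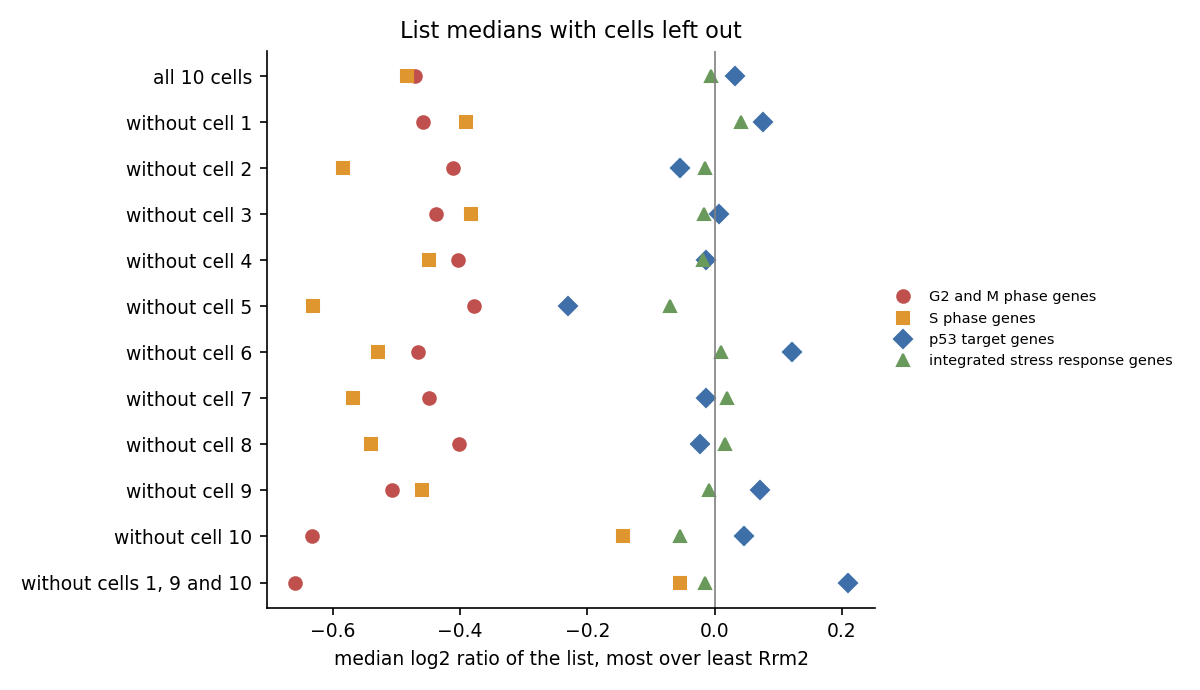
Median log2 ratio (most over least Rrm2) of 4 gene lists with all 10 knock cells, with each cell left out in turn, and without the deepest and the 2 shallowest cells. The G2 and M phase median stays between -0.66 and -0.38, the S phase median ranges from -0.63 to -0.05, and the p53 median lies on both sides of 0.

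Across all genes, 59 of 5001 at a mean of 50 CPM or more were called at least 2-fold higher with most Rrm2 (1.18%) and 35 at least 2-fold lower (0.700%). Of the calls 62.8% were higher. TMM factors gave 88 and 16 calls, or 84.6% higher, and median-of-ratios factors gave 97 and 11, or 89.8%. They shift the median of all genes by 0.10 and 0.13. After thinning all cells to 150000 counts it was 50.7% (69 and 67). Leaving out cell 10 gave 90 higher calls, cell 6 gave 89, and cell 5 gave 69 lower calls. Relative to the median of all genes, the G2 and M phase list stood at -0.35 and the S phase list at -0.36, with 0.15 for p53 targets.

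Among genes at 50 CPM or more that met the naming rule, the highest ratio was that of Lrrc8a, a subunit of the volume-regulated anion channel. It had 267.4, 265.2, 65.3, 129.7 and 311.5 CPM against 48.7, 37.1, 61.0, 35.5 and 51.6 CPM, a log2 ratio of 2.27 (1.95 to 2.61). The sides did not overlap, though cell 9 lay close to cell 4. Spry2, a feedback inhibitor of receptor tyrosine kinases, followed at 1.95 (1.62 to 2.28). It was high in cells 1 and 3 (333.0 and 402.0 CPM), intermediate in cell 5 (104.8 CPM) and between 32.7 and 58.4 CPM in the other 7, and its ratio was 1.29 without cell 3. The rest of the 10 highest were Abhd2, Kdm6b, Pdp2, Micu3, Lsm14b, LTO1, Notch2 and Dnajb12, from 1.53 to 1.79, of which Abhd2, Lsm14b and Dnajb12 separated the sides. All 10 were picked for large ratios, and 0.494% of all genes separated the sides upward. Without cell 3, Micu3 had 1.01. Lrrc8a, Abhd2, Kdm6b, Micu3, LTO1 and Notch2 overlap other annotated genes. The gene that LTO1 overlaps is Ccnd1, on the opposite strand, so their ratios may not be separate results.

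Among genes at 50 CPM or more that met the naming rule, the lowest ratio was that of Pcm1, the scaffold of centriolar satellites. It had 40.4, 23.5, 39.2, 21.6 and 18.6 CPM against 84.1, 59.9, 63.2, 135.4 and 95.1 CPM, a log2 ratio of -1.74 (-2.30 to -1.23), and the sides did not overlap. The rest of the 10 lowest were Heatr3, Flot2, Ranbp2, Acad9, Dcaf8, Tollip, Cntrl, Dlgap5 and Ift74, from -1.29 to -1.18. Ranbp2, a nuclear pore gene, had -1.27, and -0.68 without cell 10. Flot2, Acad9, Tollip and Ift74 separated the sides. These genes were picked for large ratios, and 1.46% of all genes separated the sides downward. Heatr3, Acad9, Dcaf8 and Ift74 overlap other annotated genes.

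Control cells ranked the same way had cycle list medians of the other sign, and p53 and integrated stress medians near 0 as before. Their Rrm2 stood at 576.6 CPM in the 5 with most and 414.1 CPM in the 5 with least, and these cells took no part in choosing the knock cells. G2 and M phase genes then had a median of 0.11 (42 of 63 above 0), S phase genes 0.26 (35 of 45), checkpoint and repair genes 0.25 (24 of 31), p53 targets 0.03 (13 of 23) and integrated stress genes -0.05 (17 of 40). All genes had a median of -0.04. By cell, the G2 and M phase level ran from -1.49 and -1.32 in control cells 4 and 3, with least Rrm2, to 0.87 in control cell 9, the deepest. Over the 10 control cells that level had a Pearson r of 0.59 with Rrm2, and 0.34 without the 2 farthest cells. The S phase level had 0.04, p53 -0.31 and integrated stress -0.49. Calls were 32 higher (0.595%) and 25 lower (0.465%) of 5374, and 9 genes (0.106%) separated the sides upward and 30 (0.353%) downward of 8507. Of the 10 genes highest in knock cells, all but Micu3 (-0.19) were above 0 in control cells too. Intervals lay above 0 for Lrrc8a (0.70), Pdp2 (0.56), Lsm14b (0.78), LTO1 (0.44) and Notch2 (0.72). The 10 lowest lay on both sides of 0, from -0.62 (Heatr3) to 1.23 (Dlgap5). Dlgap5, at -1.20 in knock cells, was named both for its low ratio there and for its likeness to Rrm2 in control cells. Whether the control and knock rankings differ was not tested. One control cell on the upper side held 41570 counts, 22 of them from Rrm2.

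The 50 genes most like Rrm2 over the 10 control cells (Pearson r of log2 CPM from 0.89 to 0.67) had no common direction in the knock cells, where 23 were above 0 and 27 below, with a median of -0.01. Over all genes at 50 CPM or more 40.4% were above 0, with a median of -0.08. The 5 nearest were Zfp326, Dlgap5, Tmed1, Eif4e2 and Cnot2, with r from 0.89 to 0.78. In the knock cells Eif4e2, a cap-binding protein gene, was higher at 0.46 (0.24 to 0.67), and Zfp326, Tmed1 and Cnot2 were lower at -0.54, -0.53 and -0.61. Of the 50 genes, 4 are on the G2 and M phase list and 1 on the S phase list. Without the shallowest control cell 21 of the 50 were chosen again, and the median in knock cells was -0.15. The 50 were the top of a ranking over 10 cells, and the choice thus changed with 1 cell. Whether they follow Rrm2 beyond chance was not tested, so their directions are no result about genes that follow Rrm2.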

How the data were processed

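RNA of single L929 cells was measured by CBTi-seq in 1 sample of 3. The authors deposited whole-number UMI counts per gene and column, not normalized, for 10 control and 10 knock columns. STAR 2.7.11b, Picard and FastQC are named in the submitters' processing notes, with GRCm38 and GRCh38 and no roles. The sources used here do not give the counting tool, the role of strand or the UMI length. Tables of the 3' method were not used.

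Columns were ranked by Rrm2 CPM. Counts were summed over 5 columns, scaled to CPM, and compared as log2 ratios with exact conditional (Clopper-Pearson) 95% intervals. Calls needed 50 CPM and 2-fold, list members 20 CPM. List levels used log2 CPM after adding 1 count. Each cell was picked singly, and no doublet caller was run. The members, the 18 lists and the comparisons were chosen with earlier results of these data known. Named genes are Rrm2, Rrm1, Rrm2b, the 10 largest ratios each way at 50 CPM with counts in at least 4 columns of the higher side and a direction that holds once that side's top column is dropped, up to 4 members per list, 16 preset genes and the 5 most like Rrm2 in control cells. Gene models without names, ribosomal and mitochondrial genes stayed out of the largest ratios. Comparing each side with the control cells, and counting genes apart without cell 10, were added after the data were seen. Symbols turned into dates (21, with 0.206% of counts) stayed in the totals.

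Highest counts per cell were 512 to 638, so a UMI pool as small as 5 random bases allow would saturate, and a correction for such collisions was an alternative. Coordinates are 1-based, from GENCODE vM21 (GRCm38). Calculations were tested on simulated data. Tools were scipy 1.17.1, numpy 2.4.6, matplotlib 3.10.9 and pandas 2.3.3 under Python 3.11.15, with edgeR 4.0.16 and DESeq2 1.42.0 under R 4.3.3 for scaling factors only. A few named genes are not reported here.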

Additional observations from a re-analysis of the deposited data

Results flagged for a closer look

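Among the 5 knock cells with most Rrm2, cell 1 stood apart in the level of integrated stress response genes. Its list level was -0.287, the nearest of the other 4 was 0.0188, and the gap came to 0.800 of the range of the 5 cells. Of 12 sets of 5 values looked at, 1 stood apart in this way, and chance alone flags about 1 set in 20. Cell 1 also held the most Rrm2 and the most Cebpb of the knock cells. No explanation was tested.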

How the results depend on the processing

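No paired analysis was possible because all columns belong to 1 sample and their numbers are only names. Calls of 59 higher and 35 lower became 97 and 11 with median-of-ratios factors, 112 and 214 at 20 CPM, 31 and 3 at 100 CPM, and 2301 and 3807 with no level limit. Lower calls became 67 after thinning, 16 with TMM factors and 104 with 3 cells against 3. With 1 cell left out, higher calls ranged from 41 to 90 and lower calls from 28 to 69, the G2 and M phase median from -0.63 to -0.38, the S phase median from -0.63 to -0.14, p53 from -0.23 to 0.12 and integrated stress from -0.07 to 0.04. With median-of-ratios factors the G2 and M phase median was -0.34 and integrated stress 0.13. The S phase median was -0.71 with 3 cells against 3. Without the deepest and the 2 shallowest cells, an alternative chosen after seeing the data, there were 119 higher calls, the G2 and M phase median was -0.66 (59 of 63 below 0), the S phase median was -0.054 and p53 was 0.21. The correlation of Rrm2 with integrated stress became 0.22 without the 2 farthest cells. The cause of these shifts was not tested. Corrections for UMI collisions, and ranking on totals without cycle genes, gave the same 5 and 5 cells. Of values for named genes under settings other than leaving 1 cell out, 1041 moved by less than their error and 77 by more. The level limits cannot change a gene's ratio, and the ranking without cycle genes chose the same cells. Part of the 1041 was therefore fixed in advance. With 1 cell left out, 803 values moved by less than their error and 57 by more. Depth limits genes such as Rrm2b, at 27 and 37 counts.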
